A study of Gallus gallus with 3 samples.

Results

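Neurotransmitter receptor genes were followed through 3 RNA libraries of the balance organ of the chicken embryo. Members were taken by symbol, as every gene of the glutamate, GABA, glycine, acetylcholine, serotonin, adrenergic, dopamine and ATP receptor families, without the efferent receptor genes *CHRNA9* and *CHRNA10*. The rule matched 111 of the 30108 genes in the files. Of these, 4 encode no transmitter receptor. They are *HTRA1*, *HTRA2* and *HTRA3*, which encode serine proteases, and *GRID2IP*, which encodes a protein that binds a delta receptor. The numbers below are for the remaining 107 receptor genes, and the 4 others are described at the end. The files give the identifier alone for 15011 genes, so that a receptor gene without a symbol is not among the members.

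The libraries came from a type I hair cell of an E20 embryo, a type II hair cell of an E19 embryo, and ampullary cristae pooled from 22 embryos at E16, all from Isa Brown eggs of both sexes, with no treatment named. Hair cells are the mechanosensory cells of the crista. The type was assigned from the potassium current recorded through the patch pipette that then drew out the cytoplasm, and the cells were the single type I and the single type II cell kept out of a larger set. With 1 library in each group there were no replicates and no tests, and age and method cannot be told apart from cell type. Reads of a gene were estimated by the authors and need not be whole. They sum to 10779664 in the type I cell, 11943061 in the type II cell and 67428006 in the whole crista. Detection of a gene means 1 estimated read or more. Levels are given in TPM, which scale reads by transcript length and library and so allow genes to be compared within a library. Intervals are exact Poisson 95% intervals of the rounded reads. The reads were amplified and carry no molecular identifiers, so these intervals, and the limit of 3 reads that is left by a count of 0, cover only the error of counting.

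At a vestibular hair cell synapse, glutamate released by the hair cell is received by AMPA-type receptors on the afferent ending, while efferent fibres release acetylcholine onto the hair cell itself. Ionotropic receptors are channels built from several subunits, each from its own gene. Metabotropic receptors are not channels and are coupled to G proteins. GABA-A and glycine receptors are chloride channels, and a typical GABA-A receptor combines α-, β- and γ-subunits.

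The labels were checked on marker lists. Of 14 hair-cell markers, the type I cell had reads of 9 and the type II cell of 8, with *OCM1*, the calcium buffer oncomodulin, at 29368 and 23580 TPM. *MYO7A*, *POU4F3* and *GFI1*, which define hair cells, had no read in either cell. Markers of other cells were also present in both. They were *GJB6* and *SLC1A3* of 7 supporting-cell markers (summed 382 and 402 TPM, against 2122 in the crista), 2 of 7 Schwann-cell markers, *SOX10* among them (73.7 and 89.4, against 3261), 3 of 6 mesenchymal markers (486 and 374, against 1920), *KCNE1* of 4 dark-cell markers (12.8 and 11.4, against 593) and *MITF* of 6 melanocyte markers (0.358 and 0.429, against 182). The crista sums include markers without a read in the hair cells, and single genes departed from them. *SOX10* had 70.8 TPM in the type I cell and 86.7 in the type II cell, above its 52.9 in the crista. *COL1A1*, a mesenchymal marker, had 397 and 307 TPM against 356. The crista held more of *GJB6* (1316 TPM, against 349 and 374), *SLC1A3* (123, against 32.5 and 28.3) and *COL1A2* (1174, against 82.9 and 62.2). Of 11 neuronal markers, none was read in the type I cell and *SNAP25* alone in the type II cell, at 0.201 TPM. No endothelial, immune or erythroid marker had a read in a hair cell. Genes that every cell uses were among those without a read in the hair cells, such as *HPRT1*, with 4593 reads in the crista, so that a count of 0 is a limit for the library and not for the cell.

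In the hair cells, receptor transcripts came down to a single gene. *GABRG1*, which encodes the γ1 subunit of the GABA-A receptor, had 14958 estimated reads (95% interval 14719 to 15200) in the type I cell, and the type II cell had 16794 (16541 to 17050). The whole crista had 23997 (23694 to 24303). The gene (ENSGALG00010013677) lies on chromosome 4 of the chicken assembly GRCg7b, from 66668470 to 66725004, and no other gene of the RefSeq annotation overlaps it. Its level was 361 TPM in the type I cell, 352 TPM in the type II cell and 192 TPM in the crista. It ranked 453rd, 473rd and 903rd among all genes of the libraries in that order. Of the TPM summed over the receptor genes, *GABRG1* held 99.9% in either hair cell and 27.2% in the crista.

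Levels of *GABRG1* in the hair cells were close. In TPM the type I cell had 1.03 times the level of the type II cell (counting interval 1.003 to 1.048). When reads were scaled to library size alone (CPM), the ratio lay on the other side of 1, at 0.987, and divided by the median ratio of genes that had 10 reads or more in each cell it was 0.850. Over the 879 genes that had 1000 reads or more in each cell, log2 TPM ratios had an SD of 0.31, against 0.04 for the log2 ratio of *GABRG1*, so the difference was smaller than the spread between these cells.

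Against the crista, *GABRG1* was 1.88-fold higher in TPM in the type I cell (counting interval 1.84 to 1.92) and 1.83-fold higher in the type II cell (1.80 to 1.87). Neither passed the 2-fold rise used as a call, which 38.7% of the genes read 10 times or more in the type I cell and 39.7% of those read so in the type II cell did. On CPM the gene was 3.90- and 3.95-fold higher and was called in both. So were 44.6% of the genes with 10 reads or more in the type I cell and 43.9% in the type II cell. The effective length behind TPM was 4436 and 4778 bases in the hair cells and 3017 bases in the crista, and a change from TPM to CPM also moved the median gene by 0.56 and 0.44 on the log2 scale. Relative to the median gene, *GABRG1* stood 1.03 and 0.98 higher in log2 TPM and 1.52 and 1.65 higher in log2 CPM. In TPM, 39.1% of the genes that had 10 reads or more in the cell and the crista were at or above its difference from the crista in the type I cell and 40.2% in the type II cell. The gene was therefore far above every other receptor gene in these cells, and its distance from the crista was reached by many genes. Markers of supporting, Schwann and mesenchymal cells lay in the same libraries at the values given above, and their part in the level of *GABRG1* was not tested.

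**Figure D1:**
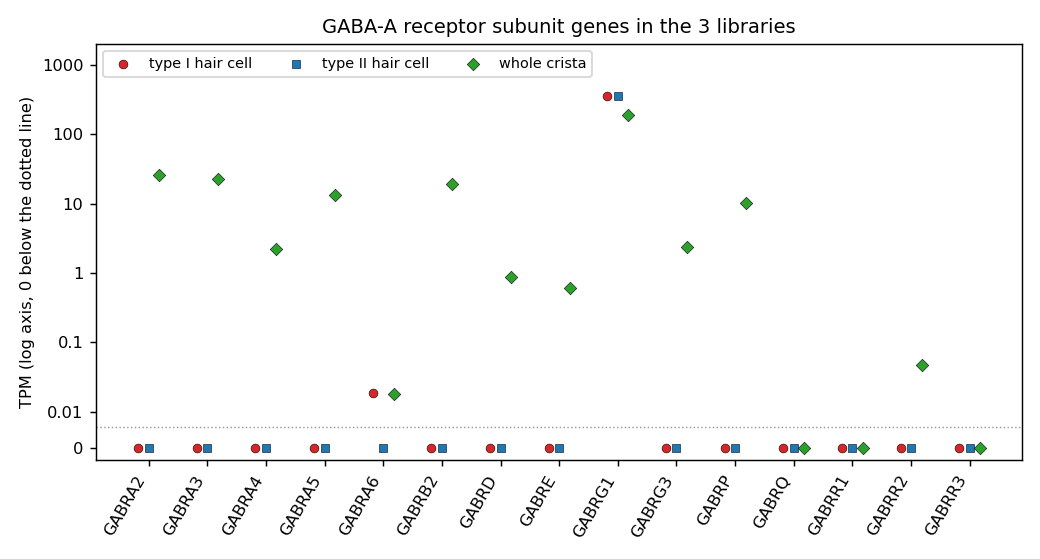
The TPM of GABA-A subunit genes in the type I cell (circles), the type II cell (squares) and the whole crista (diamonds), on a log axis with genes at 0 below the dotted line, 1 library each. *GABRG1* stands at 361, 352 and 192 TPM, and in the hair cells the other subunits shown are at 0 except *GABRA6*, with 1 read in the type I cell.

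The usual partners of a γ-subunit were almost unread in the hair cells. The 6 α- and 2 β-subunit genes named in the files summed to 99.0 and 38.8 TPM in the crista. In the hair cells the α-subunits had 1 read in all, of *GABRA6* in the type I cell, and the β-subunits had none. Of all genes 9.12% had a read in either hair cell, and of genes with a symbol 14.5%, so these counts say little about the subunits. *GABRA2*, with 2459 reads or 26.2 TPM in the crista, was at 0 in both, which leaves a limit of 0.140 TPM for the type I cell and 0.132 TPM for the type II cell. *GABRB2*, at 19.4 TPM in the crista, had a limit of 0.106 TPM in the type I cell. The γ-subunit *GABRG3* had 209 reads in the crista and none in the hair cells. *GABRG1* therefore took nearly all of the 196 TPM of the 3 γ-subunits in the organ.

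The receptor genes beside *GABRG1* on the chromosome had no read in the hair cells. *GABRA2*, from 66583433 to 66642003, and *GABRA4*, from 66448723 to 66494727, lie beside it on chromosome 4. They had 2459 and 352 reads in the crista and 0 in the hair cells. The other GABA-A gene groups were unread in the hair cells but for 1 read of *GABRA6*. Since 9.12% of all genes and 14.5% of genes with a symbol were read in either hair cell, these zeros say little about the groups. In the group on chromosome 1, *GABRA5* and *GABRG3* stood at 13.2 and 2.39 TPM in the crista. On chromosome 13, *GABRB2* stood at 19.4 TPM and *GABRA6* at 0.0181 TPM. There the annotated span of *GABRB2* contains *GABRA6*, and how the counting placed reads of overlapping genes was not examined. This limit covers 49 of the 107 receptor genes, which overlap another RefSeq gene, *HTR2B*, *P2RX4* and *CHRNA7* among them. Near the start of chromosome 4, *GABRA3* had 23.0 TPM between *GABRQ* at 0 and *GABRE* at 0.617 TPM.

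Apart from *GABRG1*, 6 receptor genes were read in the type I cell and 4 in the type II cell, with no more than 3 reads each. The 7 receptor genes detected in the type I cell are 6.54% of the 107, against 7.77% of all genes. The 5 of the type II cell are 4.67%, against 7.91%. Among genes with a symbol the shares were higher, at 13.1% for the type I cell and 13.2% for the type II cell. In both cells 3 were detected, or 2.80% against 6.56%. With at least 10 reads *GABRG1* alone remained in either cell, or 0.935% of the receptor genes, against 5.88% of all genes for the type I cell and 5.69% for the type II cell. The reads of all other receptor genes summed to 7 for the type I cell and 9 for the type II cell.

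*CHRNA4*, a neuronal nicotinic subunit, had 1 read (95% interval 0.0253 to 5.57) in the type I cell and 3 reads (0.619 to 8.77) in the type II cell, against 10542 in the crista. Its TPM in the type II cell was 0.00104 times that in the crista (counting interval 0.000214 to 0.00304), so that the second most abundant receptor gene of the organ was almost unread in these cells. *GRIA3*, an AMPA receptor subunit, had 1 and 2 reads against 930. Read in the type I cell alone were *HTR4*, a serotonin receptor, with 2 reads, and *GABRA6*, *GRM8* and *HTR7L* with 1 read each. Read in the type II cell alone were *GRM5*, a metabotropic glutamate receptor, with 3 reads and *CHRNB2*, the usual partner of *CHRNA4*, with 1. For none of them does the interval in one cell lie clear of that in the other. *GRM5*, *HTR4* and *HTR7L* had no read in the deeper library of the crista.

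The efferent receptor genes left out of the list were low in these cells as well. *CHRNA9* had 21 and 20 reads, and *CHRNA10* had none, against 2225 and 1738 in the crista. The study lists a *CHRNA10* transcript in the type I cell, which these counts do not show.

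**Figure D2:**
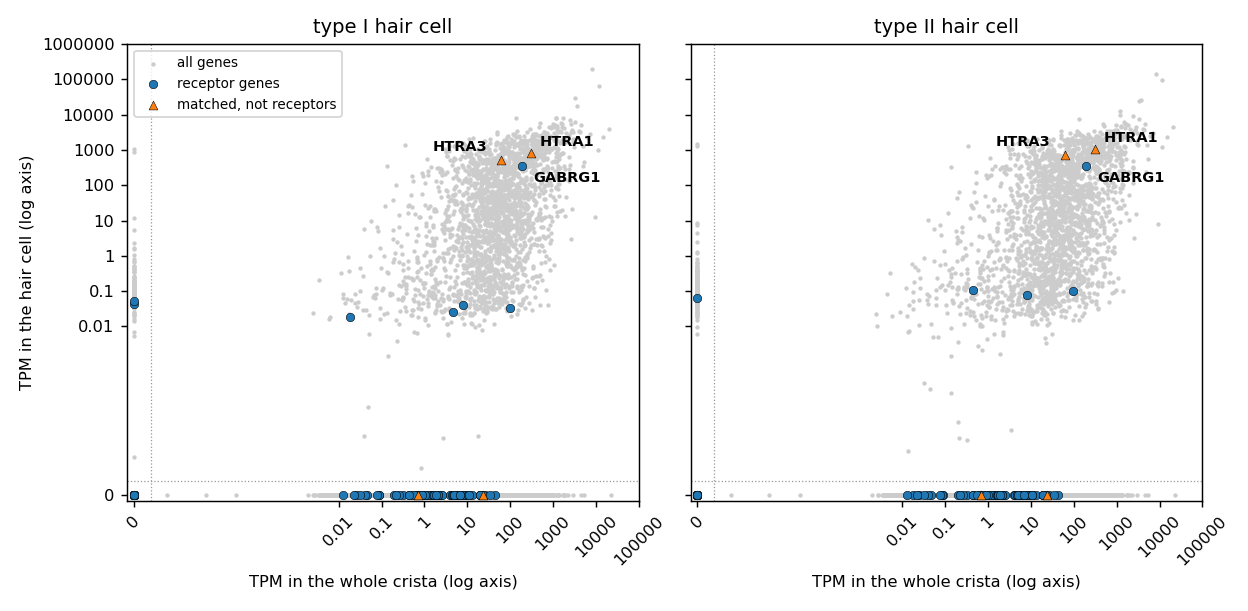
TPM of every gene in a hair cell (vertical) against its TPM in the whole crista (horizontal), on log axes with genes at 0 beyond the dotted lines, for the type I cell (left) and the type II cell (right). Receptor genes are blue circles, the matched genes that are not receptors are orange triangles, and among the receptor genes *GABRG1* alone lies above 1 TPM in a hair cell.

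Because detection depends on abundance, receptor genes were also set beside all genes at a like level in the crista. Of 14 receptor genes with at least 10 TPM in the crista, *CHRNA4* and *GABRG1* had a read in a hair cell, against 22.4% of the 8550 genes at that level. From 1 to under 10 TPM, 2 of 38 were read (*GRIA3* and *GRM8*), against 8.21% of all genes. Under 1 TPM, 5 of 55 were read, against 2.51%, on 1 to 3 reads each. These shares of all genes include genes without a symbol, and were not counted for genes with a symbol alone. Scaled from the crista CPM to the depth of the type I cell, 58 receptor genes would have had at least 10 reads. At the depth of the type II cell, 59 would have, and in each cell 1 of them did. The same count was not made over all genes, so it has no background share of its own. Grouped by crista TPM instead, most genes also stayed under 10 reads. Of all genes with at least 10 TPM in the crista, 17.8% had at least 10 reads in a hair cell. From 1 to under 10 TPM, 4.19% did.

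In the whole crista, 78 of the 107 receptor genes were detected, or 72.9%, against 59.8% of all genes. Among genes with a symbol, as the receptor genes all are, the share was 85.5%. Levels were low. The median receptor gene stood at 0.927 TPM, against 0.443 TPM over all genes and 12.7 TPM over genes with a symbol. Reads numbered at least 1000 for 16 receptor genes and at least 100 for 54, and 8 had 1 to under 10. No read in any of the 3 libraries was found for 26 receptor genes. These counts by read number were not made over all genes, so they have no background share. The 5 most abundant receptor genes, with *GABRG1*, *CHRNA4* and *GLRA4* at their head, held 55.7% of the summed TPM. GABA-A genes held 48.7% of it, nicotinic genes 16.5%, glycine receptor genes 6.44% and AMPA receptor genes 4.80%. In bulk tissue fewer cells of a type and less RNA per cell cannot be told apart, and the neuronal, Schwann-cell and immune markers of the organ summed to 327, 3261 and 301 TPM.

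**Figure D3:**
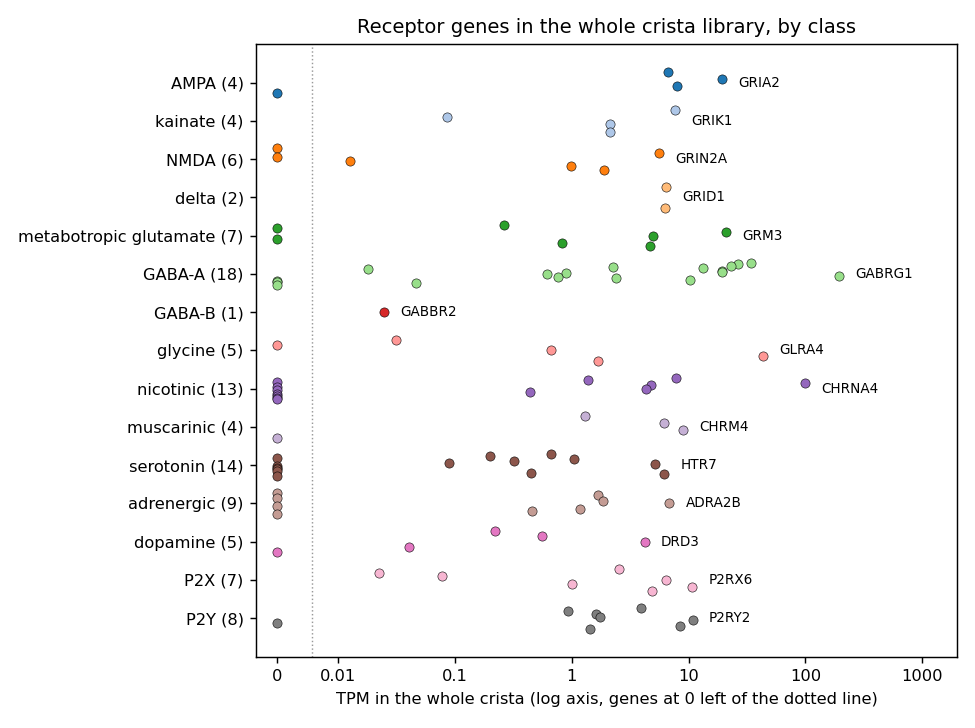
TPM of each of the 107 receptor genes in the whole crista (1 library), on a log axis with genes at 0 left of the dotted line, by receptor class with the number of genes in brackets. The most abundant gene of each class is named, and *GABRG1* (192 TPM) and *CHRNA4* (98.3 TPM) lie to the right of all others.

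Among the ionotropic glutamate receptors of the crista, AMPA subunits were the most abundant. *GRIA2*, the subunit that limits calcium entry through the channel, had 2803 reads or 19.4 TPM (ENSGALG00010008237, chromosome 4, 20867881 to 20962642). *GRIA3* stood at 7.99 TPM and *GRIA1* at 6.64 TPM, and *GRIA4* was at 0. The kainate subunit genes were all read, led by *GRIK1* at 7.60 TPM, with *GRIK4* at 2.13, *GRIK3* at 2.11 and *GRIK2* at 0.0855 TPM. In this library 59.8% of all genes and 85.5% of genes with a symbol were detected. Of the NMDA subunits, *GRIN2A* had 1169 reads or 5.53 TPM, *GRIN3B* 1.89 TPM and *GRIN3A* 0.983 TPM. *GRIN1*, the subunit that NMDA receptors require, was at 0 in all 3 libraries, as was *GRIN2B*, and *GRIN2C* had 2 reads. *GRID1*, a delta receptor gene that encodes an organizer of synapses, stood at 6.40 TPM.

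*GRM3*, a metabotropic receptor that lowers cyclic AMP, led its class with 3209 reads or 20.7 TPM in the crista (ENSGALG00010005431, chromosome 1, 8244957 to 8353810). *GRM4* and *GRM8*, which act in the same direction, followed at 4.94 and 4.65 TPM. *GRM7* was at 0.831 TPM, while *GRM2* and *GRM5* were at 0.

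*GLRA4*, an α-subunit of the glycine receptor, was the third receptor gene of the crista, with 3795 reads or 43.3 TPM (ENSGALG00010016173, chromosome 4, 1965973 to 1973951). *GLRB*, the subunit that anchors glycine receptors at synapses, stood at 1.69 TPM, *GLRA3* at 0.669 TPM and *GLRA1* at 0.0315 TPM, and *GLRA2* was at 0. In the hair cells *GLRA4* was unread, where its crista CPM would have given 607 reads at the depth of the type I cell. The GABA-A class also held *GABRP*, which encodes the π-subunit, at 10.4 TPM and *GABRD* at 0.889 TPM. The ρ-subunit genes *GABRR1* and *GABRR3* were at 0 and *GABRR2* had 9 reads. *GABBR2*, which encodes a subunit of the metabotropic GABA-B receptor, had 3.

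Nicotinic genes were uneven. *CHRNA4* stood at 98.3 TPM (ENSGALG00010023162, chromosome 20, 9213274 to 9232985), and *CHRNB2*, its usual partner, at 0.437 TPM on 22 reads. *CHRNA1*, the α-subunit of the muscle receptor, had 7.74 TPM, although *CHRND* and *CHRNG* of that receptor were at 0. *CHRNA5* had 337 reads and *CHRNA3* and *CHRNB4*, with which it is grouped on chromosome 10, had none. *CHRNA7* stood at 4.35 TPM and *CHRNA2* at 1.39 TPM, while *CHRNA6*, *CHRNA8* and *CHRNB3* were at 0. In this class 7 of 13 genes were thus unread in the organ and 6 were detected. Of all genes 59.8% were detected there, and of genes with a symbol 85.5%. Of the muscarinic receptors, *CHRM4* had 8.99 TPM, *CHRM3* 6.11 TPM and *CHRM2* 1.29 TPM, and *CHRM5* was at 0.

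Receptors for monoamines stood at 6.84 TPM or lower in the crista. *HTR7* and *HTR2B*, the first serotonin receptors, had 6.15 and 5.14 TPM, *HTR1E* had 1.04 TPM, 5 others were between 0.0887 and 0.659 TPM, and 6 of the 14 were at 0. These were *HTR3A*, the serotonin-gated channel, with *HTR1D*, *HTR2C*, *HTR4*, *HTR5A* and *HTR7L*. In the crista 59.8% of all genes and 85.5% of genes with a symbol were detected. *ADRA2B* led the adrenergic receptors at 6.84 TPM, with *ADRA2A*, *ADRA1B* and *ADRB1* between 1.18 and 1.84 TPM and *ADRA1A*, *ADRA1D*, *ADRA2C* and *ADRB3* at 0. Of the dopamine receptors, *DRD3* had 328 reads or 4.20 TPM, *DRD2* and *DRD1* had 58 and 41 reads, *DRD4* had 2 and *DRD5* had none.

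All 7 P2X genes, which encode ATP-gated channels, were detected in the crista, with *P2RX6* at 10.7, *P2RX4* at 6.35, *P2RX7* at 4.84, *P2RX1* at 2.54 and *P2RX5* at 1.01 TPM. *P2RX3* and *P2RX2*, the channels of sensory neurons, had 5 reads and 1. Of the 8 P2Y genes, 7 were detected, led by *P2RY2*, a receptor for ATP and UTP, at 10.9 TPM and *P2RY6*, a receptor for UDP, at 8.47 TPM. *P2RY1* had 3.94 TPM, *P2RY8* had 1.44 TPM and *P2RY4* was at 0. *P2RY12*, *P2RY13* and *P2RY14*, which lie within the span of *MED12L* on chromosome 9, stood at 0.927, 1.62 and 1.75 TPM. None of these 15 genes had a read in a hair cell. In either hair cell, 9.12% of all genes and 14.5% of genes with a symbol were detected, so this count says little about these receptors. In the crista 59.8% and 85.5% were detected, so with so few genes the crista counts say little either.

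Of 84 further genes of transmitter synthesis, transport and receptor assembly, 73 matched a symbol, and 8 were detected in the type I, 9 in the type II cell and 65 in the crista. Of genes with a symbol, 13.1%, 13.2% and 85.5% were detected in these libraries, so the counts are near that background. At 10 reads or more the type I cell held 7 of them and the type II cell 6. That many reads were found for 10.8% and 10.5% of genes with a symbol, so these counts are also near background. *SHISA9*, an auxiliary subunit of AMPA receptors, was the highest, with 8141 and 9709 reads or 601 and 697 TPM, against 41.0 TPM in the crista. *HOMER3*, a scaffold that binds metabotropic glutamate receptors, reached 237 and 303 TPM, against 64.7. *SLC6A2*, the noradrenaline transporter, had 68.0 and 58.0 TPM, against 19.6. These 3 were higher in either hair cell than in the organ in TPM and in CPM. Such a rise was common. Of all genes with at least 10 reads in the cell, 38.7% in the type I cell were at least 2-fold higher in TPM. In the type II cell 39.7% were. *SLC1A3*, a glutamate transporter of glia and supporting cells, had 32.5 and 28.3 TPM against 123, and *PICK1*, a scaffold of AMPA receptors, 11.3 and 7.96 TPM against 45.1. *GPHN*, the scaffold of GABA-A and glycine receptors, had 17 reads (95% interval 9.90 to 27.2) in the type I cell and 6 reads (2.202 to 13.1) in the type II cell. The AMPA, kainate and NMDA receptor genes themselves had 1 read in the type I cell and 2 reads in the type II cell, all of *GRIA3*.

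**Figure D4:**
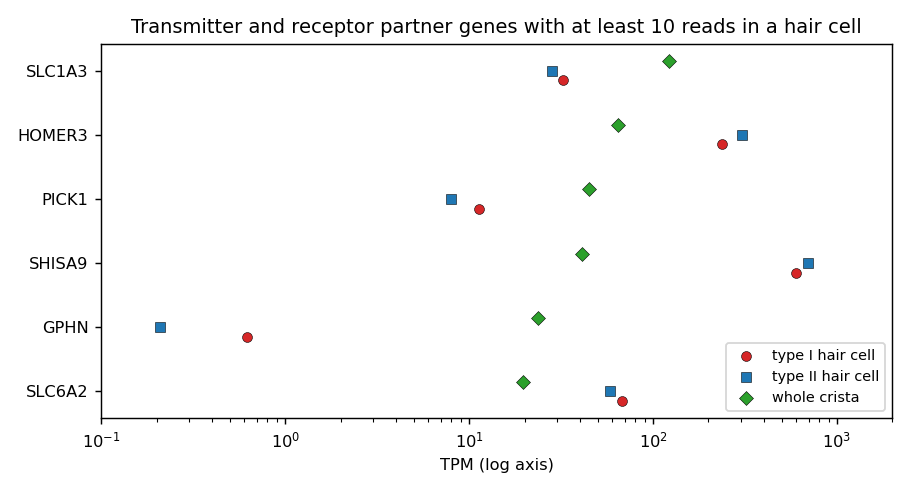
TPM on a log axis of genes of transmitter transport and receptor assembly with at least 10 reads in a hair cell, in the type I cell (circles), the type II cell (squares) and the whole crista (diamonds), 1 library each. *SHISA9*, *HOMER3* and *SLC6A2* are higher in either hair cell than in the crista, and *SLC1A3*, *PICK1* and *GPHN* are lower.

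Of 16 matched genes of transmitter synthesis and vesicle loading, 1 was detected in each hair cell. Of genes with a symbol, 13.1% were detected in the type I cell and 13.2% in the type II cell, so a group this small says little. *GLUL*, glutamine synthetase, had 6 reads and 1, and the other 15 had none. Among them was *SLC17A8*, the vesicular glutamate transporter of hair cells, with 3762 reads or 28.5 TPM in the crista. After *GLUL* at 43.9 TPM and *SLC17A8*, the next in the organ was *TPH2* at 4.23 TPM. *SLC1A3* and *BCHE* (121 TPM) were among the first 3 genes of uptake and breakdown there, receptor assembly was led by *OLFM1* (232 TPM), *SHISA9* and *GSG1L* (31.3 TPM), and scaffolds by *NSF* (79.8 TPM), *HOMER3* and *PICK1*.

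Of the 4 matched genes that are not receptors, *HTRA1* and *HTRA3* were abundant in the hair cells. *HTRA1*, a secreted protease, had 11279 reads or 800 TPM in the type I cell, 15281 reads or 1032 TPM in the type II cell, and 307 TPM in the crista. *HTRA3*, its relative, had 504, 727 and 61.0 TPM. The 2-fold rise over the crista was passed by both in either cell, at 2.61- and 3.36-fold for *HTRA1* and 8.25- and 11.9-fold for *HTRA3*. Of all genes with at least 10 reads in the cell, 38.7% passed it in the type I cell and 39.7% in the type II cell. The type I to type II ratio was 0.775 (counting interval 0.756 to 0.794) and 0.693 (0.675 to 0.711), and these log2 ratios of -0.37 and -0.53 are 1 to 2 SDs of those of the 879 genes. *HTRA2*, a mitochondrial protease, and *GRID2IP* had no read in the hair cells and 23.4 and 0.696 TPM in the crista.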

How the data were processed

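Reads of 3 libraries were analysed. Single-cell cDNA was made by template switching and sequenced as single reads of 100 bp. The authors aligned the whole-crista read pairs with Illumina DRAGEN to GRCg7b. A pipeline for the single cells is not given in the methods, and the submitters' processing notes name bcl2fastq 2.20.0.422, DRAGEN, GRCg7b and galGal4. The deposited values are an estimated count of reads per Ensembl gene, not normalized between libraries, and TPM within each library. They were used as they stand. Positions come from RefSeq genes of GRCg7b, matched by symbol for all 107 receptor genes. Sequences were not used here.

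The members and lists were chosen with earlier results of these data known. Named are all members with a read in a hair cell, the first 20 receptor genes and the first of each class in the crista, and list genes with at least 10 reads in a hair cell or among the first 3 of their group in the crista; the remaining members are named to account for the list. A few genes that fall under the rule count in the totals but are not reported here. *HOMER3* has a pair of identifiers, of which the one with more crista reads was used. Intervals of ratios are exact for a pair of Poisson counts. Their coverage was checked only on counts simulated as Poisson, which says nothing about the error of amplified reads. A crista without a read was set to 3 reads in fold calls. Alternatives were other detection thresholds, CPM in place of TPM, CPM without mitochondrial genes, the median ratio, a 4-fold rise and all matched symbols. TPM rescaled without mitochondrial genes and the gene with the highest TPM in both hair cells, the CPM of *GABRG1*, and 10 reads in the comparison by crista level were chosen after seeing the data. Scripts ran in Python 3.11.15 with scipy 1.17.1, pandas 2.3.3, numpy 2.4.6 and matplotlib 3.10.9.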

Additional observations from a re-analysis of the deposited data

How the results depend on the processing

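With at least 5 or 10 reads, or 1 TPM, 1 receptor gene was detected in the type I cell, 1 in the type II cell and 1 in both, and with at least 3 reads 1, 3 and 1. With all matched symbols 5 members were detected in both at 1 read, where 6.56% of all genes were. At 10 reads, 0, 0 and 1 receptor genes were read in a hair cell at under 1, 1 to under 10 and at least 10 TPM in the crista. The shares of all genes at these levels were 0.369%, 4.19% and 17.8%. The GABA-A share of receptor TPM in the crista was 47.1% on reads and 29.6% without *GABRG1*, and of 30 alternatives for the class shares 28 moved by more than counting error. The type I to type II ratio of *GABRG1* was 0.987 on CPM, 0.967 without mitochondrial genes and 0.850 against the median ratio, on the other side of 1 from the TPM ratio of 1.03. Its level against the crista was 3.90 and 3.95 on CPM and 2.58 and 2.48 on rescaled TPM in the type I and type II cell, so that 1 receptor gene passed the 2-fold rise in each, against 0 in TPM. Among all genes with at least 10 reads in the cell, 44.6% and 43.9% passed it on CPM. On rescaled TPM 42.9% and 43.8% did. With 1 library a group, no replicate could be left out. No paired analysis was possible because each group has 1 sample.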
